A study of Homo sapiens with 16 samples.

Results

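Clone C is a venetoclax-resistant derivative of the human myeloma cell line KMS12PE, and it is compared here with the parental KMS12PE population. The members were chosen by label: the 2 libraries of clone C and the 2 parental libraries, 4 of the 16 libraries of the series. Clone C (replicates 1 and 3) was grown from a single cell that had persisted under a high dose of venetoclax and was then kept in 100 nM of the drug. The parental cells (replicates 1 and 3) are an uncloned population, and the dose they received, if any, is not stated. KMS12PE clones A and D, made in the same way and kept at the same dose, with 2 libraries each, are used to see where clone C differs from other clones of its line. The other 8 libraries come from 3 clones of a second line, KMS27, made and kept in the same way, and from its parental cells.

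All populations carry t(11;14), the translocation that places CCND1 under an immunoglobulin enhancer. Clone C is 1 clone, so exposure to venetoclax, outgrowth of survivors and descent from a single cell cannot be told apart, and differences between cells of the parental population enter the comparison with them. Nothing in the labels says that replicates came from separate cultures, so p-values measure the spread between these libraries, which may be technical. The genome sequencing of the study was not used here.

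Venetoclax is a BH3 mimetic: it occupies the groove of the survival protein BCL2 and frees pro-apoptotic proteins such as BIM, which then activate BAX and BAK and open the mitochondrial outer membrane. Myeloma cells with t(11;14) often depend on BCL2, whereas MCL1 and BCL-XL can take over its role when they bind the freed proteins. Myeloma cells are malignant plasma cells, which make large amounts of secreted protein and carry surface antigens such as CD38 and BCMA that therapies use.

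Poly-A RNA was counted per gene. Clone C had 11512181 and 13674426 counts and the parental cells 5831289 and 6340658, so clone C was read more deeply, and the part of this gap in the results was not tested. Levels are given as CPM, counts scaled to a common TMM library size of 1000000, and differences as log2 fold change (log2FC, clone C over parental) ± its standard error, from edgeR's quasi-likelihood test with Benjamini-Hochberg adjustment over 12279 genes. The standard error was derived as the size of the log2FC divided by the square root of the test's F statistic, so it is approximate, most of all near 0 counts. Genes with an adjusted p under 0.05 are called. Each of 8 plasma cell markers was present in both populations, with lowest means of 77.1 CPM in clone C and 79.9 CPM in parental cells. Of 6 T and NK cell markers only CD3G was listed, at a mean of 1.53 CPM in clone C and 1.43 CPM in parental cells. Of 4 B cell, 6 monocyte and neutrophil, and 8 erythroid and stromal markers, 0 are in the table. Longer lists held 2 of 12 T and NK cell markers, summing to 4.41 and 4.38 CPM in clone C and 5.97 and 4.87 CPM in parental cells. They also held 1 of 12 erythroid and stromal markers, at 10.6 and 9.03 CPM in clone C and 6.85 and 8.48 CPM in parental cells. Of a longer list of 24 B cell genes 9 were listed, summing to 354 and 442 CPM in clone C and 320 and 374 CPM in parental cells. In bulk RNA, fewer cells of a type and less RNA per cell cannot be told apart.

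Clone C differed from parental cells in 219 of the 12279 genes (1.78%), 111 higher (0.904%) and 108 lower (0.880%), while 1260 genes had an unadjusted p under 0.05. With replicate number as a block, which the data allow because same-numbered libraries deviate together, 452 genes were higher (3.68%) and 417 lower (3.40%), all 219 among them, and DESeq2 called 135 higher (1.12%) and 120 lower (0.997%). Leaving out 1 of the 4 libraries cut the calls to between 21 and 34 higher and between 37 and 43 lower. The sign of all 219 held in those 4 fits, and 47 genes were called in each of them. Where a gene below lost its call without a library, this is said, mostly with its adjusted p in those fits. The libraries are called clone C 1, clone C 3, parental 1 and parental 3. In clone C the called genes were gathered in part on 2 chromosome ends, at the far end of chromosome 17 and at the start of chromosome 2.

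At the end of chromosome 17 nearly every gene had less RNA in clone C, by about the same step. After FBF1, which ends at base 75941140 of chromosome 17 (hg38), and up to METRNL, the last tested gene, which ends at 83095119, 93 genes were tested, and 60 were lower and 0 higher, or 64.5% against 0.389% lower among the genes outside this stretch and the one on chromosome 2. The zero covers the block fit as well, in which 80 were lower and 0 higher. The median log2FC was -0.998, a ratio of 0.501, with quartiles of -1.13 and -0.85, and 92 of the 93 genes lay below 0. By library, the median difference from the parental mean was -1.04 and -0.92 in clone C, 0.06 and 0.10 in clone A, and 0.04 and 0.04 in clone D, while parental 1 and parental 3 stood at -0.01 and 0.01. In 84 of the 93 genes both clone C libraries lay below all 6 other libraries of the line, against 4.94% of all tested genes.

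FBF1, a centriole appendage gene that is the last tested gene before the stretch, overlapped between the groups, at 2.82 and 4.87 CPM in clone C and 4.04 and 4.87 CPM in parental cells (log2FC -0.20 ± 0.40, adjusted p = 0.962). The 40 tested genes before the stretch, from FAM104A to FBF1, had a median log2FC of 0.06, with 0 lower and 1 higher by edgeR, the mitochondrial ribosomal gene MRPL38 (log2FC 0.47 ± 0.09, adjusted p = 0.0483, and 0.105 to 0.286 in the 4 fits without 1 library). DESeq2 gave it 0.0585. The edge was chosen after the values were seen, and counts per gene cannot place it more finely than between neighbouring genes.

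The RefSeq sequence around the FBF1 start is shown because FBF1 is the last tested gene before the lower stretch (GRCh38.p14, chr17:75940993-75941292, minus strand, 5′ to 3′). CpG dinucleotides are in capitals here and in the sequences further on.

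FBF1: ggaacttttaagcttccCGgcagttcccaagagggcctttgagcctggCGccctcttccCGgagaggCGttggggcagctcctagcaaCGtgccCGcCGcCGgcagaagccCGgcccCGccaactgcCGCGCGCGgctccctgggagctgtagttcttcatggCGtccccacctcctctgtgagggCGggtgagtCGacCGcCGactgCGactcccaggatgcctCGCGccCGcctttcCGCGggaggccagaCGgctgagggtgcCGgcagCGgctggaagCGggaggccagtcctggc

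It holds 29 CpG, and 24.2% of 35116 RefSeq promoters of the same length hold as many or more, with a median of 14. The motif searched was CG, which reads the same on both strands, and the count describes the sequence only.

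**Figure D1:**
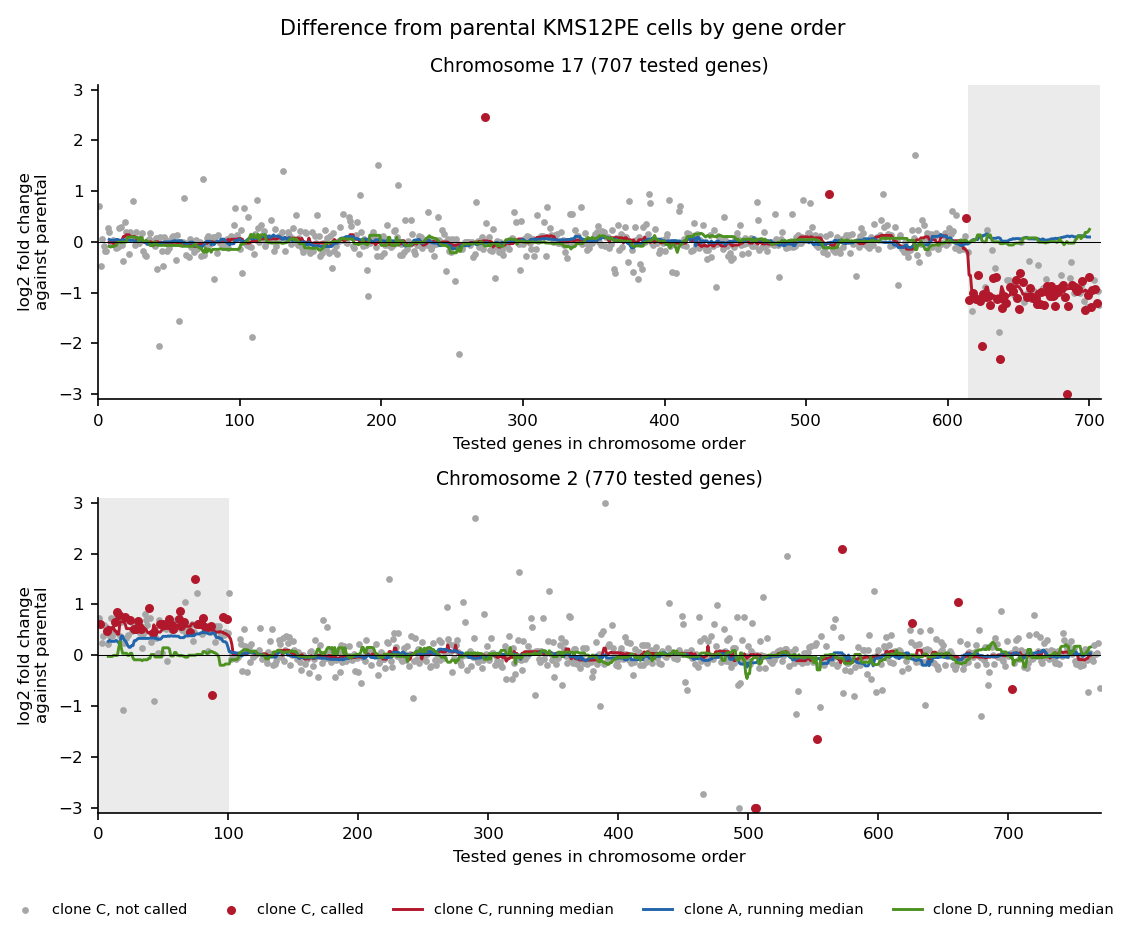
Log2 fold change against parental cells of each tested gene, in the order of the genes on chromosome 17 (above) and chromosome 2 (below). Points are clone C (red where called, values past 3 drawn at 3), lines are running medians over 15 genes for clones C, A and D, and grey bands mark the 2 stretches. The clone C line drops to about -0.998 at the end of chromosome 17, where clones A and D stay near 0, and lies near 0.53 at the start of chromosome 2.

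Genes of many functions fell together there. FOXK2, a forkhead transcription factor, stood at 76.3 and 76.6 CPM in clone C and at 196 and 175 CPM in parental cells (log2FC -1.28 ± 0.09, adjusted p = 0.000793). P4HB, the main protein disulfide isomerase of the endoplasmic reticulum, had 359 and 337 CPM in clone C and 652 and 782 CPM in parental cells (log2FC -1.04 ± 0.12, adjusted p = 0.00308). In both of these genes the 2 clone C libraries lay far below both parental libraries, without overlap. RNF157, a ubiquitin ligase (log2FC -1.13), SYNGR2, a vesicle protein (log2FC -1.30), OGFOD3 (log2FC -1.34) and PRPSAP1, which associates with the enzyme that makes phosphoribosyl pyrophosphate (log2FC -1.16), fell likewise, and all of these calls held in each of the 4 fits without 1 library.

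The stretch also holds BIRC5 and FASN. BIRC5 encodes survivin, an inhibitor of apoptosis protein needed for chromosome segregation, and it had 84.4 and 66.7 CPM in clone C, 193 and 156 CPM in clone A, 190.2 and 152 CPM in clone D and 179.9 and 169 CPM in parental cells (log2FC -1.21 ± 0.16, adjusted p = 0.00686). FASN, fatty acid synthase, had 299 and 332 CPM in clone C and 694 and 498 CPM in parental cells (log2FC -0.92 ± 0.16, adjusted p = 0.0229). Both were below every parental library in both clone C libraries, but FASN varied between the parental libraries by more than between those of clone C. The adjusted p of BIRC5 was at most 0.0744 without 1 library and above 0.05 without clone C 3, parental 1 or parental 3, and that of FASN was at most 0.206 and above 0.05 without clone C 1, clone C 3 or parental 1. ASPSCR1 (log2FC -1.26 ± 0.20, adjusted p = 0.0151) and C17orf62 (log2FC -1.04 ± 0.21, adjusted p = 0.0495) lost their calls in each of the 4 fits, with adjusted p of 0.0550 to 0.149 and of 0.143 to 0.325.

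A few genes of the stretch departed from the common step. NOTUM, a secreted enzyme that inactivates Wnt ligands, had no count in either clone C library, against 5.28 and 4.02 CPM in clone A, 4.73 and 3.47 CPM in clone D, and 6.32 and 5.50 CPM in parental cells. It was at least 50.3-fold lower than in parental cells, taking 3 counts over the 2 clone C libraries as the floor (adjusted p = 0.00102). TMC8, a membrane channel-like protein whose gene overlaps TMC6, so that its counts are uncertain, had 2.91 and 6.49 CPM in clone C and 22.8 and 24.7 CPM in parental cells (log2FC -2.31 ± 0.38, adjusted p = 0.0193), with adjusted p up to 0.149 and above 0.05 without clone C 1, parental 1 or parental 3. At the other extreme MXRA7 was the 1 gene above 0 (log2FC 0.24 ± 0.28, adjusted p = 0.901), and the splicing factor gene SRSF2 had 339 and 311 CPM in clone C and 371 and 357 CPM in parental cells (log2FC -0.16 ± 0.09, adjusted p = 0.620). FBF1, MRPL38, MXRA7 and SRSF2 were named after their values were seen.

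At the start of chromosome 2 the RNA of most genes was higher in clone C, by a smaller step. From SH3YL1, the first tested gene, to WDR43 (chr2:217730-28948222), 100 genes were tested, and 34 were higher (34.0%) and 1 lower, against 0.637% higher outside the 2 stretches. The median log2FC was 0.53, a ratio of 1.44, and 96 of the 100 genes lay above 0. By library, the median difference from the parental mean was 0.55 and 0.53 in clone C, 0.36 and 0.35 in clone A, 0.02 and -0.04 in clone D, and 0.00 and -0.00 in parental cells. With the block 73 genes were higher and 3 lower. The 40 tested genes after WDR43, from YPEL5 to ZFP36L2, had a median log2FC of 0.01, with 0 called by edgeR and 1 higher and 2 lower with the block. This edge, too, was chosen after the values were seen.

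WDR35, a component of the transport complex of cilia, had 101 and 100.1 CPM in clone C, 66.6 and 68.2 CPM in clone A, 63.4 and 55.7 CPM in clone D and 52.0 and 52.9 CPM in parental cells (log2FC 0.94 ± 0.09, adjusted p = 0.00175). ADAM17, the protease that sheds tumour necrosis factor and many receptors from the cell surface, had 129 and 116 CPM in clone C and 68.0 and 67.7 CPM in parental cells (log2FC 0.85 ± 0.09, adjusted p = 0.00229). Both calls held in each of the 4 fits, and the libraries of clone C and of parental cells did not overlap. HADHB, a subunit of the mitochondrial trifunctional protein, rose by log2FC 0.65 ± 0.09 (adjusted p = 0.00753, and 0.0703 without parental 1). RRM2, the small subunit of ribonucleotide reductase, had 604 and 527 CPM in clone C and 331 and 340.0 CPM in parental cells (log2FC 0.75 ± 0.12, adjusted p = 0.0145), with an adjusted p of up to 0.122, above 0.05 without clone C 1, parental 1 or parental 3. IFT172, another ciliary transport gene, was the single called gene that went the other way, at 12.3 and 10.5 CPM in clone C and 20.4 and 18.7 CPM in parental cells (log2FC -0.78 ± 0.15, adjusted p = 0.0367, 0.123 to 0.265 in the 4 fits, and 0.0762 by DESeq2). It was named after its values were seen.

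Clone A lay between clone C and parental cells here. Its difference from parental cells had a median log2FC of 0.35 over the 100 genes, with 2 genes higher (0.212% of all tested genes were), and clone C against clone A directly gave a median of 0.20, with 2 genes higher and 1 lower (0.529% and 0.790% of all tested genes). Clone C against clone D gave a median of 0.54. For the end of chromosome 17 the medians were -1.05 against clone A, with 61 genes lower, and -1.06 against clone D. Over the whole genome, 149 windows of 20 Mb held 20 or more tested genes, and the 3 with a median past 0.3 in either direction lie on these 2 chromosome ends. The medians of the other 146 ran from -0.09 to 0.11. The chromosome 17 stretch held 60 of the 108 lower calls (55.6%) and the chromosome 2 stretch 34 of the 111 higher calls (30.6%), and 77 higher and 47 lower genes lay elsewhere.

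**Figure D2:**
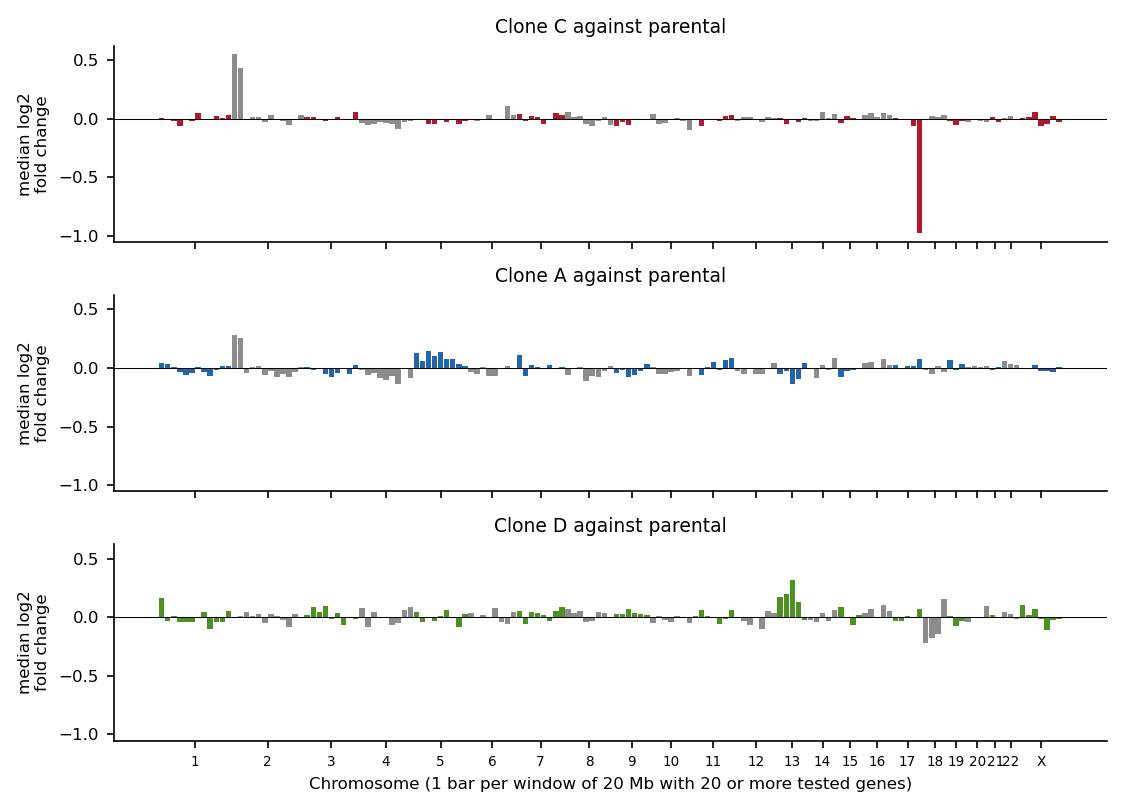
Median log2 fold change against parental cells in each of 149 windows of 20 Mb, in genome order, for clones C, A and D; colour and grey alternate between chromosomes. In clone C the windows at the start of chromosome 2 (0.55 and 0.43) and at the end of chromosome 17 (-0.98) stand away from the rest, which lie between -0.09 and 0.11.

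Outside these stretches single genes changed by much more. Among genes at a mean of 3 log2 CPM or more, the largest rise was that of PTPRK, a receptor tyrosine phosphatase that acts at cell contacts. It had 10.9 and 14.7 CPM in clone C, 5.06 and 3.79 CPM in clone A, 21.4 and 20.6 CPM in clone D, and 0 and 0.157 CPM in parental cells, where the value above 0 is 1 count. The ratio of clone C to parental cells was 157, with an exact 95% interval of 28.0 to 6216 that covers counting error only (adjusted p = 0.000793). PTPRK was thus near absent in parental cells and present in every library of the 3 clones. Its neighbour THEMIS, a signalling adaptor known from developing T cells, lies 50.1 kb away and rose as well, to 86.8 and 75.4 CPM in clone C, against 21.6 and 17.3 CPM in parental cells (log2FC 2.06 ± 0.15, adjusted p = 0.000793). THEMIS had 87.5 and 76.0 CPM in clone A, close to clone C, but 9.94 and 11.2 CPM in clone D, below the parental level, so the 2 neighbours did not share an order across the clones. Both calls held in each of the 4 fits.

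The RefSeq promoter of PTPRK is shown because the gene has next to no RNA in parental cells and some in every clone (GRCh38.p14, chr6:128520550-128520849, minus strand, 5′ to 3′).

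PTPRK: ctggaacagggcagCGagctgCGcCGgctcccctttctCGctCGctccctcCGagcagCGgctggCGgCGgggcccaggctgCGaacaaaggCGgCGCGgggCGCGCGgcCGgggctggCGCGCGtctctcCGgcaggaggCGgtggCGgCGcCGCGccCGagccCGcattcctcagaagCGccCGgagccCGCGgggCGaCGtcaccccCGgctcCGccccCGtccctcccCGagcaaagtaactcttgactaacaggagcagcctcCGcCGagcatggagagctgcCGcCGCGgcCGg

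It holds 44 CpG, and 4.19% of promoters hold as many or more. DNA methylation was not measured.

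Other genes with large rises encode receptors, membrane proteins and an antiviral factor. SYT11, a synaptotagmin of vesicle traffic, had 17.5 and 16.0 CPM in clone C and 1.93 and 2.67 CPM in parental cells (log2FC 2.85 ± 0.24, adjusted p = 0.000935). PERP, a desmosomal protein and p53 target, had 23.0 and 20.3 CPM in clone C and 3.51 and 3.30 CPM in parental cells (log2FC 2.67 ± 0.21, adjusted p = 0.000848). SLFN11, which blocks stalled replication forks and sensitises cells to DNA-damaging drugs, had 18.7 and 21.6 CPM in clone C and 4.57 and 2.83 CPM in parental cells (log2FC 2.45 ± 0.26, adjusted p = 0.00229). In all 3 the clone C libraries lay above all 6 other libraries of the line, as in 5.81% of all tested genes. For SYT11 clone A was close to clone C, at 15.7 and 13.5 CPM. CCR9, the receptor of the gut chemokine CCL25, had 62.2 and 50.4 CPM in clone C, 211 and 192 CPM in clone A, 0.473 and 1.25 CPM in clone D and 10.9 and 10.4 CPM in parental cells (log2FC 2.40 ± 0.17, adjusted p = 0.000793). The muscle myosin-binding gene MYBPC2 rose as well (log2FC 1.95 ± 0.20, adjusted p = 0.00185), and all of these calls held without any 1 library.

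The matrix protein FN1 (fibronectin) had 363 and 423 CPM in clone C, 109 and 115 CPM in clone A, 35.5 and 35.7 CPM in clone D and 191 and 187 CPM in parental cells (log2FC 1.06 ± 0.09, adjusted p = 0.00102). LEFTY2, a secreted antagonist of Nodal signalling, had 75.2 and 80.2 CPM in clone C, 68.0 and 65.3 CPM in clone A, 2.52 and 2.67 CPM in clone D and 37.2 and 37.5 CPM in parental cells (log2FC 1.06 ± 0.09, adjusted p = 0.00102). Clone C was above parental cells in both, while clone A stood below parental cells for FN1 and above them for LEFTY2. The immunoglobulin lambda genes IGLL5 (log2FC 1.35 ± 0.12, adjusted p = 0.00185) and IGLC1 (log2FC 1.12 ± 0.12, adjusted p = 0.00222) rose together. They overlap and share sequence with other lambda genes, so how reads split between them is uncertain, and the sources used here do not say whether counting used the strand.

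The calls of other rises did not hold in every fit without 1 library. LSP1, an actin-binding protein of leukocytes (log2FC 1.62 ± 0.22, adjusted p = 0.00898), had an adjusted p of 0.0527 without clone C 1. LIX1 (log2FC 2.16 ± 0.31, adjusted p = 0.0141) reached 0.149, above 0.05 without clone C 1, parental 1 or parental 3. The neuron navigator gene NAV1 (log2FC 1.83 ± 0.25, adjusted p = 0.0130), FCGBP, which encodes a mucus protein (log2FC 1.64 ± 0.26, adjusted p = 0.0157), ARHGAP42, a GTPase-activating protein (log2FC 0.94 ± 0.17, adjusted p = 0.0267), and the pseudogene TRIM53CP (log2FC 1.62 ± 0.33, adjusted p = 0.0474) lost their calls in each of the 4 fits, with adjusted p of 0.0509 to 0.123, 0.0556 to 0.154, 0.114 to 0.226 and 0.0950 to 0.287. DESeq2 gave TRIM53CP an adjusted p of 0.0625. TRIM53CP has near-identical copies, so its counts are uncertain. It had 2.29 and 2.82 CPM in clone C and 0.878 and 0.786 CPM in parental cells, which is 5 counts in each. Its mean passed 3 log2 CPM only through clone D, at 273 and 235 CPM. LIX1 had 6.79 and 5.22 CPM in clone C and 1.58 and 1.10 CPM in parental cells, and passed that mean only through clone A, at 26.1 and 22.5 CPM. FBXL7, a ubiquitin ligase subunit, and SEMA5A, an axon guidance protein, had no count in parental cells and low levels in clone C (2.29 and 3.03 CPM for FBXL7, 3.26 and 3.46 CPM for SEMA5A), at least 10.7-fold and 13.5-fold higher against the floor of 3 counts over the 2 parental libraries. Their adjusted p was 0.00986 and 0.0104, with FBXL7 above 0.05 without clone C 3, parental 1 or parental 3 (up to 0.0692) and SEMA5A in each of the 4 fits (0.0592 to 0.0692).

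**Figure D3:**
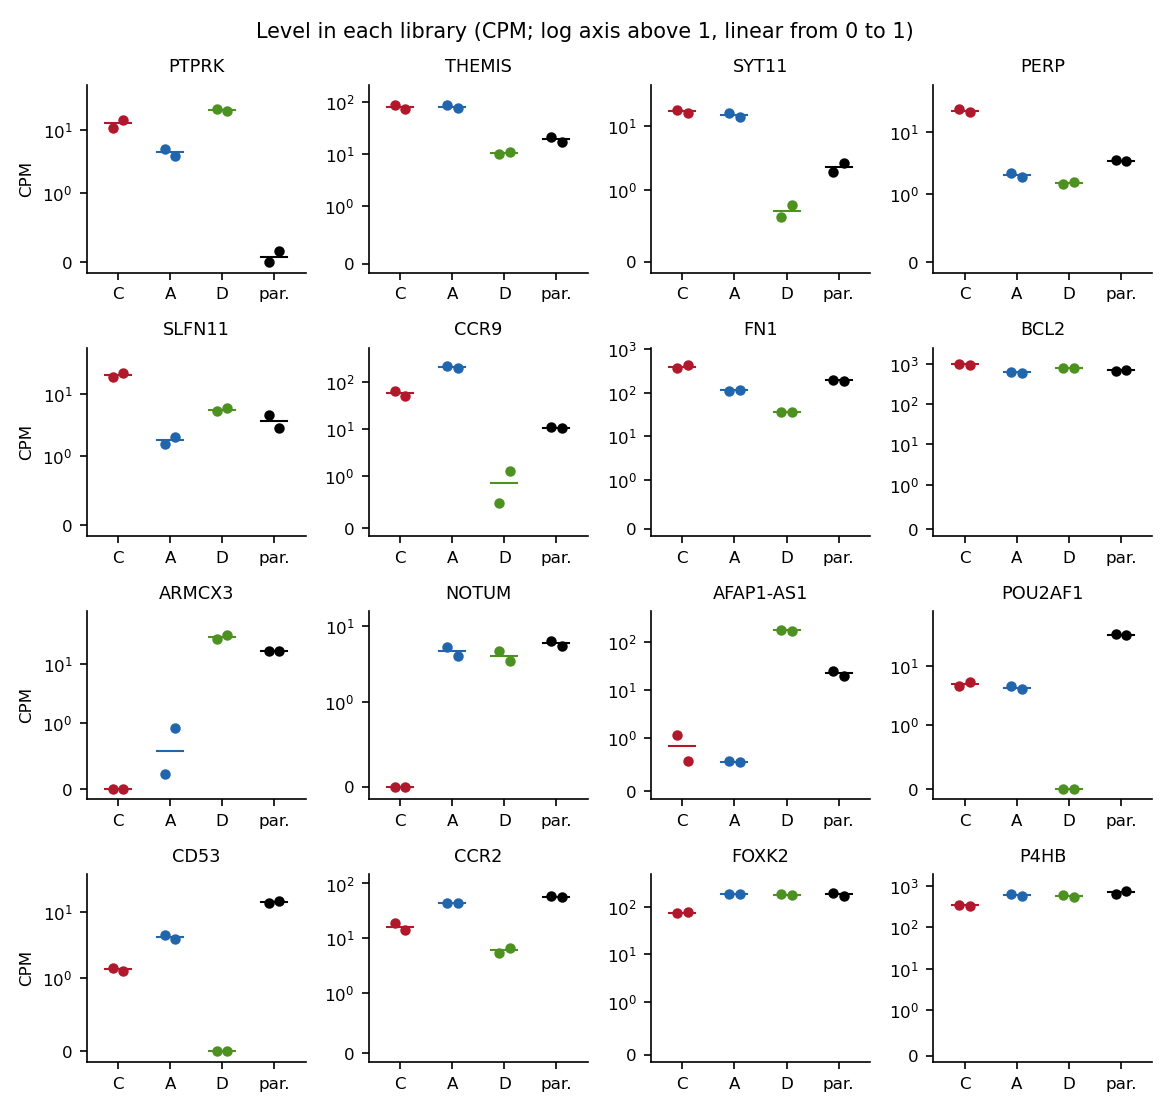
Level of 16 genes in each library, in CPM on an axis that is logarithmic above 1 and linear from 0 to 1, with points for the 2 libraries and a line at their mean, for clone C, clone A, clone D and parental cells (par.). ARMCX3 and NOTUM are at 0 in both clone C libraries, PTPRK is at 0 and 0.157 CPM in parental cells, and PERP and SLFN11 are higher in clone C than in every other library.

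Of the genes that fell outside the stretches, 2 X-linked neighbours were at or near 0 in clone C. ARMCX3, an armadillo protein of the mitochondrial outer membrane involved in mitochondrial transport, had no count in either clone C library, 0.225 and 0.929 CPM in clone A, 26.2 and 31.3 CPM in clone D and 16.9 and 16.3 CPM in parental cells. It was at least 141-fold lower in clone C than in parental cells (adjusted p = 0.000793). ARMCX6, a gene of the same cluster 4.80 kb away, had 0 and 0.0706 CPM in clone C, where the value above 0 is 1 count, and 5.27 and 5.97 CPM in parental cells. Its ratio was 144-fold lower in clone C, with an exact 95% interval of 24.97 to 5766 for counting error (adjusted p = 0.00231). The pair was low in clones C and A and high in clone D and parental cells, and both calls held in each of the 4 fits.

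The RefSeq promoter of ARMCX6 is shown as that of a gene with RNA in parental cells and next to none in clone C (GRCh38.p14, chrX:101617951-101618250, minus strand, 5′ to 3′).

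ARMCX6: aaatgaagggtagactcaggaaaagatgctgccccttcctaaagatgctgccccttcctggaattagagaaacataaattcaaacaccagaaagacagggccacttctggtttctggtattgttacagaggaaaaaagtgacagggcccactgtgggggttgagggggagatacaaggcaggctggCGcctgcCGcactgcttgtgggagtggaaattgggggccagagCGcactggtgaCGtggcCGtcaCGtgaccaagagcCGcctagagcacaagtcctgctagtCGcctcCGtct

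It holds 9 CpG, and 58.4% of promoters hold as many or more.

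AFAP1-AS1, a long noncoding RNA antisense to AFAP1, was near 0 in clone C as well, at 1.15 and 0.565 CPM, and at 0.562 and 0.542 CPM in clone A, against 181 and 174 CPM in clone D and 25.5 and 19.6 CPM in parental cells (log2FC -4.74 ± 0.25 for clone C, adjusted p = 0.000213). Where it overlaps AFAP1, reads of the gene and its antisense RNA cannot be told apart without strand. A second pair of neighbours, CSRNP3, a nuclear protein, and GALNT3, an enzyme that starts O-linked glycans, fell together on chromosome 2, 58.2 kb apart. GALNT3 had 0.617 and 0.423 CPM in clone C and 7.90 and 8.33 CPM in parental cells (log2FC -3.95 ± 0.33, adjusted p = 0.000935), and CSRNP3 had 0.264 and 0.212 CPM in clone C and 4.22 and 3.93 CPM in parental cells (log2FC -4.04 ± 0.43, adjusted p = 0.00231). In clone A CSRNP3 stood at 7.42 and 8.51 CPM, above parental cells, while in clone D both genes were below parental cells, CSRNP3 at 0.315 and 0.0890 CPM (log2FC -4.45, adjusted p = 0.00121) and GALNT3 at 1.26 and 1.42 CPM (log2FC -2.57, adjusted p = 0.00162). Among the 124 called genes outside the stretches, 13 formed 7 pairs that are adjacent in the order of tested genes, and in 5 of these pairs both genes had 1 sign.

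POU2AF1, the B cell coactivator of octamer-binding factors, had 4.58 and 5.36 CPM in clone C, 4.49 and 4.02 CPM in clone A, no count in clone D, and 35.3 and 34.2 CPM in parental cells (log2FC -2.80 ± 0.19, adjusted p = 0.000848). CD53, a leukocyte tetraspanin, had 1.41 and 1.27 CPM in clone C and 13.7 and 14.8 CPM in parental cells (log2FC -3.40 ± 0.28, adjusted p = 0.00126). CCR2, a chemokine receptor best known from monocytes, had 18.6 and 13.9 CPM in clone C and 59.0 and 55.5 CPM in parental cells (log2FC -1.82 ± 0.15, adjusted p = 0.000935). The libraries of clone C and of parental cells did not overlap in any of these genes, and the calls, with that of the syntrophin gene SNTB1 (log2FC -1.50 ± 0.16, adjusted p = 0.00231), held in each of the 4 fits. SYK, the kinase below the B cell receptor, was already low in parental cells, at 1.93 and 2.83 CPM, and had 0 and 0.0706 CPM in clone C, 61.4-fold lower with an interval of 10.2 to 2506 (adjusted p = 0.0112, and 0.0550 to 0.105 in the 4 fits).

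The calls of other falls did not hold in every fit without 1 library. ASS1, the rate-limiting enzyme of arginine synthesis, had 10.4 and 8.96 CPM in clone C but 42.5 and 117 CPM in the 2 parental libraries, which differ from each other more than most (log2FC -3.05 ± 0.42, adjusted p = 0.00864, up to 0.0802 and above 0.05 without clone C 1 or clone C 3). TTN, the giant muscle protein gene, fell by log2FC -1.66 ± 0.33 (adjusted p = 0.0474, and 0.171 to 0.309 in the 4 fits). The inflammatory caspase genes CASP1 (log2FC -0.73 ± 0.09, adjusted p = 0.00641) and CASP4 (log2FC -0.59 ± 0.10, adjusted p = 0.0209) fell together. They are adjacent in the order of tested genes, 56.0 kb apart. CASP1 lost its call without clone C 3 or parental 3, and CASP4 in each of the 4 fits. By DESeq2 the adjusted p of CASP4 was 0.0546.

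Of the BCL2 family, BCL2 itself, the target of the drug, was the 1 called gene. BCL2 had 1014 and 943 CPM in clone C, 634 and 600.5 CPM in clone A, 815 and 804 CPM in clone D and 678 and 723 CPM in parental cells, so clone C had more BCL2 RNA than every other library of its line. The log2FC was 0.48 ± 0.09 (adjusted p = 0.0363), and the adjusted p was 0.120 to 0.224 in the fits without clone C 1, clone C 3, parental 1 or parental 3, and 7.18e-05 with the block. MCL1, which can replace BCL2 as a guard against BIM, had 451 and 444 CPM in clone C and 383 and 411 CPM in parental cells (log2FC 0.17 ± 0.09, adjusted p = 0.596). BCL2L1, which encodes BCL-XL, had 16.1 and 14.4 CPM in clone C and 14.4 and 14.0 CPM in parental cells (log2FC 0.10 ± 0.15, adjusted p = 0.932), and BCL2L2 had log2FC 0.00 ± 0.31. BCL2A1 and BCL2L10, and the pro-apoptotic HRK and BOK, are not among the genes listed for KMS12PE and could not be tested.

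Of 11 tested pro-apoptotic members 0 passed by edgeR or DESeq2. An unadjusted p under 0.05 was found for 1260 of all 12279 tested genes. Of the 11 members 3 had one, 2 above and 1 below parental cells. The nearest to a call was PMAIP1, whose product NOXA opposes MCL1, with 40.6 and 35.4 CPM in clone C, 27.2 and 24.5 CPM in clone A, 26.7 and 25.1 CPM in clone D and 53.1 and 55.0 CPM in parental cells (log2FC -0.51 ± 0.11, adjusted p = 0.0701, and 0.000768 with the block). Clone C had more PMAIP1 RNA than the other clones (log2FC 0.56 against their mean, adjusted p = 0.0129). BIK, a BH3-only protein of the endoplasmic reticulum, had 7.49 and 5.999 CPM in clone C and 3.16 and 3.93 CPM in parental cells (log2FC 0.92 ± 0.27, adjusted p = 0.189, and 0.0392 with the block). BCL2L11, which encodes BIM, had 219 and 211 CPM in clone C and 177 and 192 CPM in parental cells (log2FC 0.22 ± 0.08, adjusted p = 0.368). BAX and BAK1, the effectors of pore formation, had log2FC 0.09 and 0.11, and BBC3, BMF, BID, BAD, BNIP3 and BNIP3L lay between -0.20 and 0.23, none of them called. Over all 9 alternatives the adjusted p ran from 2.17e-05 to 0.224 for BCL2, from 0.000768 to 0.463 for PMAIP1 and from 0.0392 to 0.814 for BIK.

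**Figure D4:**
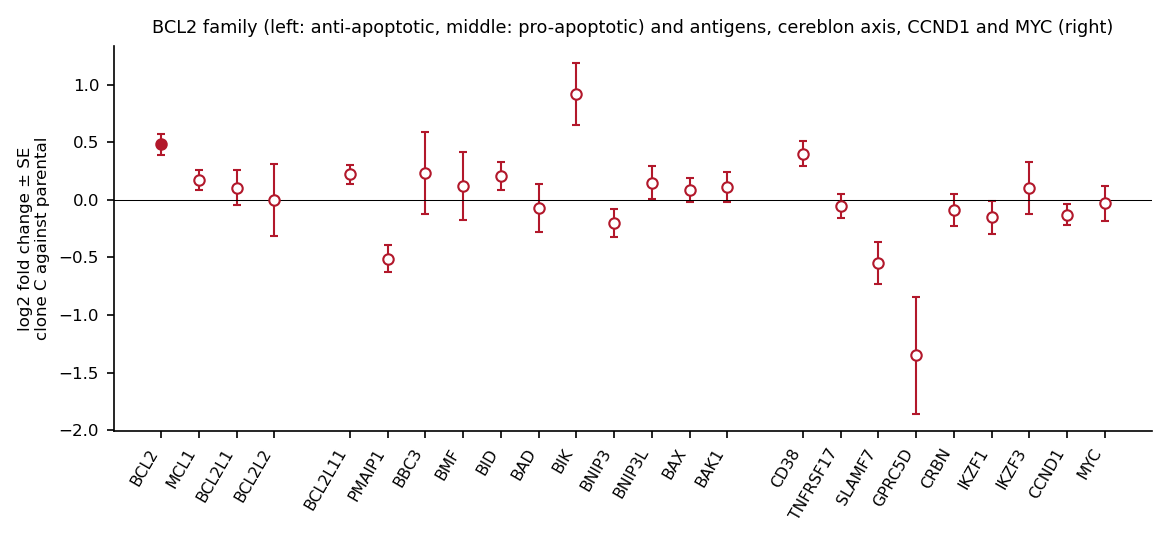
Log2 fold change of clone C against parental cells, with its standard error as the bar, for 4 anti-apoptotic genes, 11 pro-apoptotic genes and 9 genes of antigens, the cereblon axis, CCND1 and MYC. The filled point is the 1 called gene, BCL2 at 0.48, and open points did not pass the test.

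CD38, SLAMF7, BCMA, GPRC5D, cereblon and its substrates IKZF1 and IKZF3, CCND1 and MYC did not pass the test in clone C. CD38, the target of daratumumab, had 466 and 432 CPM in clone C and 308 and 371 CPM in parental cells (log2FC 0.40 ± 0.11, adjusted p = 0.140, 0.0165 by DESeq2 and 0.00243 with the block). SLAMF7, the target of elotuzumab, had 118 and 127 CPM in clone C and 141 and 217 CPM in parental cells (log2FC -0.55 ± 0.19, adjusted p = 0.281, and 0.000602 with the block). CD38 was above and SLAMF7 below both parental libraries, and the 2 parental libraries differed among themselves for SLAMF7. The adjusted p ran from 0.00243 to 0.509 for CD38 and from 0.000602 to 0.826 for SLAMF7 over the 9 alternatives. TNFRSF17, which encodes BCMA, had 80.8 and 73.4 CPM in clone C and 76.1 and 83.7 CPM in parental cells (log2FC -0.05 ± 0.11, adjusted p = 0.963), and GPRC5D was low in both, at 0.617 and 0.423 CPM in clone C and 1.41 and 1.26 CPM in parental cells (log2FC -1.35 ± 0.51, adjusted p = 0.359). CRBN, which encodes cereblon, the target of lenalidomide, had log2FC -0.09 ± 0.14, and its neosubstrates IKZF1 and IKZF3 had -0.15 ± 0.14 and 0.10 ± 0.23. CCND1 had 601 and 630.5 CPM in clone C and 638 and 709 CPM in parental cells (log2FC -0.13 ± 0.09, adjusted p = 0.752), and MYC had 1208 and 1047 CPM in clone C and 1245 and 1057 CPM in parental cells (log2FC -0.03 ± 0.15, adjusted p = 0.993).

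Over the 633 tested genes of 34 lists, 8 were higher and 14 lower (3.48%, against 1.78% of all tested genes), the median log2FC was -0.04 (-0.00 over all genes), and 4 of the 22 called genes, BIRC5, P4HB, FASN and RRM2, lie in the 2 stretches. The lists were counted without a set test. Of the plasma cell identity genes, 1 of 20 was higher and 3 were lower, at a median log2FC of -0.17, and with the block 2 were higher and 7 lower (3.68% and 3.40% of all tested genes). PIM2, a survival kinase of plasma cells, had 213 and 201 CPM in clone C and 118 and 153 CPM in parental cells (log2FC 0.61 ± 0.12, adjusted p = 0.0425). JCHAIN, which joins polymeric antibodies, had 609 and 490.0 CPM in clone C and 788 and 1011 CPM in parental cells (log2FC -0.71 ± 0.14, adjusted p = 0.0455). The prolyl isomerase FKBP11 (log2FC -0.49 ± 0.09, adjusted p = 0.0230) and POU2AF1, described above, also fell. The calls of JCHAIN and FKBP11 were lost in each of the 4 fits, with adjusted p of 0.0679 to 0.286 and 0.0799 to 0.199, and that of PIM2 without clone C 1, clone C 3 or parental 1 (up to 0.221).

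Of 29 genes of the unfolded protein response and endoplasmic reticulum folding, 1 was lower, P4HB of the chromosome 17 stretch, and 0 were higher by edgeR. The median was -0.12 with 24 of 29 below 0, while 49.4% of all tested genes lay above 0. DESeq2 called 3 lower and 1 higher, 8 were lower and 1 higher at an unadjusted p under 0.05, and with the block 9 were lower and 1 higher (3.40% and 3.68% of all tested genes). PDIA6, another disulfide isomerase, lies in the chromosome 2 stretch and had 1125 and 996 CPM in clone C and 788 and 737 CPM in parental cells (log2FC 0.48 ± 0.11, adjusted p = 0.0686, 0.000359 by DESeq2 and 4.91e-05 with the block), also named after its values were seen. Of 20 MHC class I presentation genes, 0 passed by edgeR or DESeq2, at a median of -0.16 with 16 of 20 below 0 (49.4% of all tested genes lay above 0). There 6 were lower and 0 higher at an unadjusted p under 0.05, which 1260 of all 12279 tested genes had in either direction. With the block 6 were lower, against 3.40% of all tested genes. Of 17 class II genes 1 was higher, HLA-DOA, a modulator of peptide loading in B cells, with 96.4 and 112 CPM in clone C and 39.3 and 47.8 CPM in parental cells (log2FC 1.26 ± 0.19, adjusted p = 0.0130, and 0.0550 to 0.154 in the 4 fits). With the block 1 class II gene was higher and 2 lower (3.68% and 3.40% of all tested genes). HLA genes resemble each other, so reads may be split unevenly among them.

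Among 14 ligands for natural killer and T cells, NCR3LG1, the ligand B7-H6 of the receptor NKp30, had 9.61 and 13.1 CPM in clone C and 3.34 and 4.08 CPM in parental cells (log2FC 1.61 ± 0.25, adjusted p = 0.0141, up to 0.151 and above 0.05 without clone C 3, parental 1 or parental 3). CD48, the ligand of the receptor 2B4, had 86.6 and 74.1 CPM in clone C and 135 and 135 CPM in parental cells (log2FC -0.75 ± 0.13, adjusted p = 0.0246, and 0.0796 to 0.186 in the 4 fits). These were the 2 called genes of that list, 1 in each direction (0.904% of all tested genes were higher and 0.880% lower). With the block 2 were higher and 4 lower (3.68% and 3.40% of all tested genes). Of 15 antibody and cell therapy targets 1 was lower, the adhesion receptor CD44, which had 4.41 and 2.96 CPM in clone C, 0.225 and 0.232 CPM in clone A, 0.158 and 0 CPM in clone D and 13.7 and 12.4 CPM in parental cells (log2FC -1.83 ± 0.34, adjusted p = 0.0305, and 0.123 to 0.261 in the 4 fits). With the block 5 of the 15 were lower and 1 higher (3.40% and 3.68% of all tested genes). Of 21 adhesion and migration genes the call beside CD44 was CADM1, a cell adhesion molecule, with 6.17 and 5.08 CPM in clone C and 1.41 and 0.943 CPM in parental cells (log2FC 2.26 ± 0.33, adjusted p = 0.0123, up to 0.136 and above 0.05 without clone C 1, parental 1 or parental 3). BACH2, a repressor of plasma cell differentiation, rose to 109 and 102 CPM in clone C, against 58.1 and 61.3 CPM in parental cells (log2FC 0.82 ± 0.10, adjusted p = 0.00590, and 0.0703 without parental 1), while CD53 and SYK, of the same list of 9 tested B cell genes, were lower.

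Of 21 genes of fatty acid synthesis and desaturation 2 were lower and 0 higher, FASN and the desaturase FADS1, which had 133 and 142 CPM in clone C and 204 and 197 CPM in parental cells (log2FC -0.54 ± 0.08, adjusted p = 0.0115, and 0.0592 to 0.109 in the 4 fits), and with the block 8 were lower and 1 higher (3.40% and 3.68% of all tested genes). By DESeq2 the same 2 and 0 were counted. At an unadjusted p under 0.05 there were 8 and 0, against 1260 of all 12279 tested genes in either direction. Of 60 electron transport genes 1 was higher, COX6C, a subunit of cytochrome c oxidase, with 297 and 286 CPM in clone C, 182 and 167 CPM in clone A, 189 and 189 CPM in clone D and 191 and 207 CPM in parental cells (log2FC 0.55 ± 0.09, adjusted p = 0.0148, and 0.0767 to 0.128 in the 4 fits). DDIT4, an inhibitor of mTORC1 induced by stress, was the 1 called gene of 20 in the integrated stress response (log2FC -1.04 ± 0.17, adjusted p = 0.0193, and 0.107 to 0.164). PIK3R1, the regulatory subunit of PI3K (log2FC -0.66 ± 0.13, adjusted p = 0.0367, 0.139 to 0.266 in the 4 fits, and 0.122 by DESeq2), fell with SYK among 24 genes of B cell receptor signalling, and the lipid transporter ABCA3 fell among 12 efflux transporters (log2FC -0.76 ± 0.11, adjusted p = 0.00971, and 0.0590 to 0.106).

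RRM2 was the 1 called gene of 38 in the S phase list and BIRC5 the 1 called gene of 35 in the G2 and mitosis list, and both lie in the stretches. With the block the S phase list still held 1 call, while in the G2 and mitosis list 3 were higher and 4 lower (3.68% and 3.40% of all tested genes). Of 30 MYC and nucleolar targets 0 were called by edgeR. At an unadjusted p under 0.05, 3 were higher and 1 lower, against 1260 of all 12279 tested genes in either direction. DESeq2 called 3 higher and 0 lower. Those 3 are ODC1, which makes polyamines, the ribosome biogenesis gene WDR43 and CAD, which starts pyrimidine synthesis, and they are the 3 list members in the chromosome 2 stretch, at log2FC 0.69, 0.43 and 0.41 in clone C. The median of the list was -0.09, with 25 of its 30 genes below 0, while 49.4% of all tested genes lay above 0. With the block 3 were higher and 3 lower (3.68% and 3.40% of all tested genes).

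**Figure D5:**
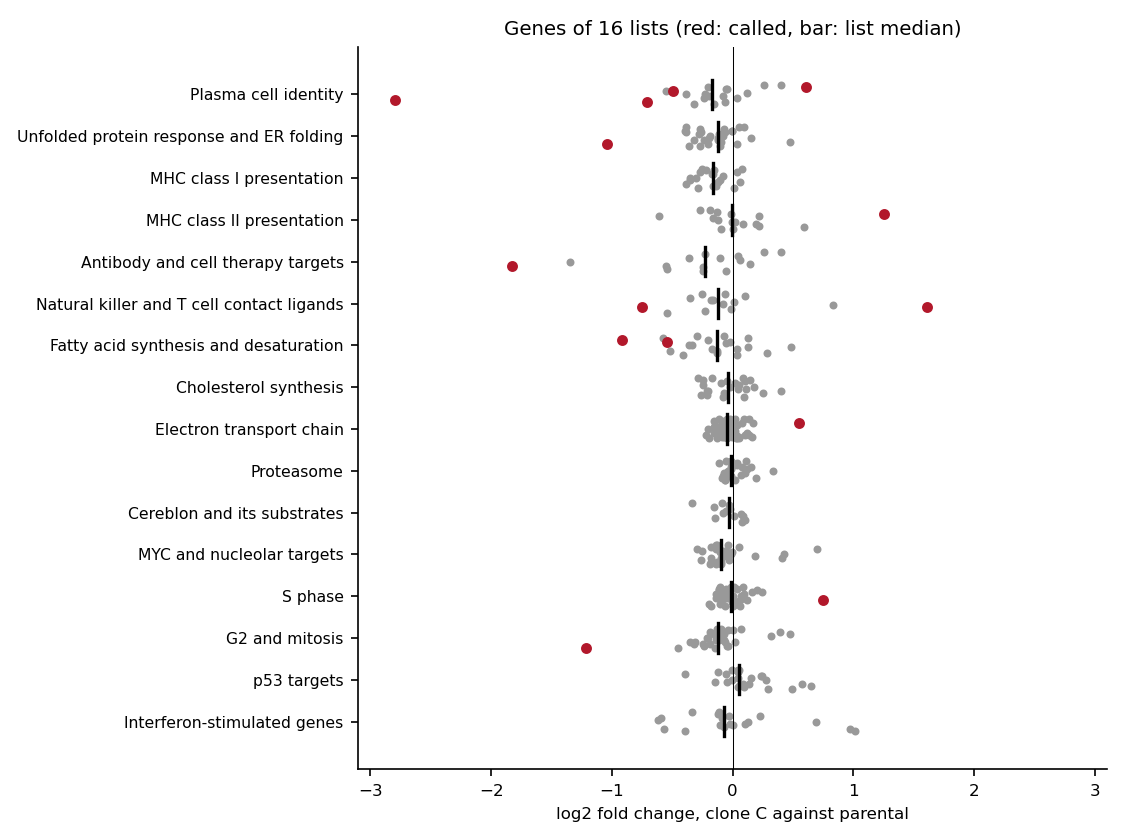
Log2 fold change of clone C against parental cells for each tested gene of 16 lists, with red points for called genes and a black bar at the list median. The medians lie between -0.23 and 0.05, and most lists hold 1 called gene or none.

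Without the block, no call was made by edgeR among 32 proteasome genes (2 above parental cells and 0 below at an unadjusted p under 0.05, 0 by DESeq2), 24 cholesterol synthesis genes (1 above and 3 below, 0 by DESeq2), 19 interferon-stimulated genes (0 above and 3 below, 0 by DESeq2), 24 p53 targets (2 above and 1 below, 0 by DESeq2) or 13 genes of cereblon and its substrates (0 and 0, 0 by DESeq2). Their medians were -0.01, -0.04, -0.07, 0.05 and -0.03. PERP, a called gene named above as a p53 target, is not in the p53 list, whose largest log2FC was 0.65. With the block 1 proteasome gene was higher, 1 cholesterol gene was higher and 1 lower, 2 interferon-stimulated genes were lower, 2 p53 targets were higher and 1 lower, and 0 of the cereblon list were called. Over all tested genes the block gave 3.68% higher and 3.40% lower. Without the block 1260 of the 12279 tested genes had an unadjusted p under 0.05, in either direction. At this depth and with 2 libraries a side, smaller shifts were not detectable gene by gene.

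Clone C was also set against the other 2 KMS12PE clones, a contrast in which no parental library enters. Against the mean of clones A and D, 353 genes were higher (2.87%) and 175 lower (1.43%), and with the block 1019 and 720. Without 1 library of clones A, C or D the counts were 132 to 352 higher and 72 to 163 lower, the lowest both without clone C 1. Of the 93 genes at the end of chromosome 17, 71 were lower in this contrast, and of the 100 at the start of chromosome 2, 32 were higher. Both clone C libraries lay above all 6 other libraries in 5.81% of all tested genes and below them in 4.94%. Genes called in both contrasts with 1 sign, at a mean of 3 log2 CPM or more and with clone C beyond all 6 other libraries numbered 52 above and 65 below (0.423% and 0.529% of all tested genes). Of those below, 58 lie in the chromosome 17 stretch, and of those above, 19 lie in the chromosome 2 stretch.

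PERP was among those above outside the stretches, with 2.13 and 1.86 CPM in clone A and 1.42 and 1.51 CPM in clone D beside the clone C values given above (log2FC 3.65 against their mean, adjusted p = 9.18e-06). FN1 (log2FC 2.64, adjusted p = 9.32e-07) and SLFN11 (log2FC 2.66, adjusted p = 0.000167) were also above each of the other clones. For SYT11 (log2FC 2.34) and LEFTY2 (log2FC 2.56) the contrast came from clone D, since clone C against clone A gave log2FC 0.20 (adjusted p = 0.913) and 0.22 (adjusted p = 0.495). COX6C and HLA-DOA stood above clones A and D as well, by log2FC 0.69 (adjusted p = 0.000919) and 0.91 (adjusted p = 0.00961). BCL2 was higher than in clone A (log2FC 0.66, adjusted p = 0.00750) and not past the test against clone D (log2FC 0.27, adjusted p = 0.114).

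KMS27 gives an independent set of resistant clones with its own parental cells. Of 95 genes higher in clone C and tested in both lines, 22 were higher in the mean of the KMS27 clones (23.2%, against 13.7% of all genes tested in both lines) and 12 were lower. These 22 are 1.41% of the 1559 genes higher in KMS27. Of 99 genes lower in clone C, 15 were lower in the KMS27 clones (15.2%, against 12.4%, and 1.07% of the 1407 lower in KMS27) and 17 were higher. With the block in both lines the shared counts were 88 and 77, while the clone C calls over all its tested genes rose to 452 and 417. Shares over all genes and opposite directions were not counted with the block, so 88 and 77 cannot be read against 22 and 15. Leaving out 1 library lowered the shared counts. No set test was made on the shares of the main fit.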

How the data were processed

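Poly-A RNA of 8 KMS12PE and 8 KMS27 libraries had been sequenced, and the authors deposited 1 table of whole-number counts per gene symbol for each line. Per the submitters' processing notes the genome build was hg38. The sources used here do not name an aligner, a counting tool, an annotation or the use of strand. Each of the 12592 genes listed for KMS12PE reaches 5 counts in 4 or more of the 8 libraries, so genes silent in most populations are not seen.

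From these counts, edgeR 4.0.16 (R 4.3.3) tested 12279 genes that passed filterByExpr (313 left out), with TMM scaling and 1 mean per population over the 8 KMS12PE libraries, by the quasi-likelihood test, 2-sided, with Benjamini-Hochberg adjustment. The biological coefficient of variation was 11.9%. The procedure was also run on counts simulated from the spread of this fit. Those had no deviation shared by libraries of 1 number, so that run does not bear on the pairing described next. CPM are TMM-scaled. A prior count of 2 entered the log2 CPM behind the medians by library and the replicate correlations. The log2FC came from the fit with its own default prior count. DESeq2 1.42.0 was an alternative. Libraries with 1 number deviated together in each of the 6 pairs of populations (correlations of the difference between replicates 1 and 3 over 9063 genes of 0.454 to 0.746, and 0.464 for clone C with parental cells), so the numbers were taken to pair the libraries, and block values stand beside results they change. Replicates differed by more than counting noise (chi-square per degree of freedom 8.54 in clone C, 4.95 in parental cells). A count of 0 allows up to 3 counts, which is 0.118 CPM over the clone C libraries and 0.249 CPM over the parental libraries, and this floor and the intervals cover counting error only.

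Positions are those of GENCODE release 29, matched for 11641 genes, and promoters are from RefSeq (GRCh38.p14). Figures were drawn with matplotlib. Named genes are the 12 largest rises and 12 largest falls among called genes at a mean of 3 log2 CPM or more with both clone C libraries beyond both parental libraries, fixed BCL2 family and drug target genes, the 4 called genes of smallest adjusted p in each list, 8 genes in each direction that set clone C apart from clones A and D, and genes with 0 counts in 1 group. Outside this rule, and chosen with their values in view, are the 3 genes with the smallest adjusted p in each stretch, adjacent called genes, and those marked in the text. Members and lists were chosen with earlier results of these data known. Some genes that the rule names are not reported here.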

Additional observations from a re-analysis of the deposited data

Results flagged for a closer look

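The 23 genes here are named genes for which clone C differed from each of clones A and D (adjusted p under 0.05 in both contrasts, edgeR's quasi-likelihood test). Of all 12279 tested genes 114 did so (0.928%). Some genes were named because clone C stood apart from clones A and D, so the 23 cannot be read against that share. Values are log2 differences of clone C minus the mean of clones A and D.

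In the chromosome 17 stretch the differences were -0.99 for RNF157, -1.47 for PRPSAP1, -1.33 for SYNGR2 and -1.19 for BIRC5. They were -0.77 for P4HB, -1.57 for ASPSCR1, -1.41 for OGFOD3, -1.26 for FOXK2 and -1.38 for C17orf62. NOTUM had -8.38, a fitted value against 0 counts in clone C that depends on the prior count of the fit. In the chromosome 2 stretch they were 0.67 for WDR35 and -1.16 for IFT172.

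Elsewhere clone C was above both other clones for PERP (3.65), SLFN11 (2.66), FN1 (2.64), CD44 (4.81), COX6C (0.69) and HLA-DOA (0.91). CD44 was also lower in clone C than in parental cells, so clone C stood between parental cells and the other 2 clones. Clone C lay between clones A and D for CCR9 (2.01), LIX1 (3.42), CD53 (2.53), NCR3LG1 (0.57) and CCR2 (-0.015), with clone A above it and clone D below it for all of these but NCR3LG1, where clone D was above and clone A below. For LIX1 and CD53 clone D had 0 counts, so these 2 are fitted values.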

How the results depend on the processing

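Each value is for clone C against parental cells unless named otherwise, and the cause of each change was not tested. With replicate number as a block, calls went to 452 higher and 417 lower, and against clones A and D to 1019 and 720. The genes shared with KMS27 went to 88 higher and 77 lower, without a count of the share over all genes. Without 1 library, calls were 21 to 34 higher and 37 to 43 lower, against clones A and D 132 to 352 and 72 to 163, and shared with KMS27 7 to 9 and 5 to 6. Counting genes outside the 2 stretches, chosen after seeing the data, left 77 higher and 47 lower. With median-of-ratios scaling, no filter, DESeq2 or the compared libraries alone, these counts, where run, stayed within 1.5 times, at 112, 113, 135 and 119 higher and 106, 105, 120 and 107 lower. The window medians at the start of chromosome 2 ran from 0.53 to 0.63 and from 0.40 to 0.43 without 1 library, and that at the end of chromosome 17 from -1.03 to -0.92. Without 1 library the sign turned for uncalled genes, with log2FC running from -0.26 to 0.17 for BAD, -0.28 to 0.38 for BCL2L2, -0.060 to 0.32 for BMF, -0.25 to 0.11 for CRBN, -0.66 to 0.13 for FBF1, -0.30 to 0.016 for IKZF1, -0.14 to 0.31 for IKZF3, -0.14 to 0.10 for MYC and -0.12 to 0.019 for TNFRSF17. Of 96 named gene results, 30 to 34 lost their call without 1 library, 5 with DESeq2, 7 with the compared libraries alone, 2 without the filter, 1 with the other scaling and 0 with the block, which added 8. With 2 libraries a side and 5831289 to 13674426 counts in each, small shifts and genes near 0 are the least certain.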
